A study of Mus musculus with 20 samples.

Results

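The DNAJ genes encode the co-chaperones of the Hsp70 family. They were taken here as every gene whose mouse symbol begins with Dnaja, Dnajb or Dnajc followed by a number, a rule that uses names only and no measured value. The rule found 47 of the 55487 gene identifiers in the count tables: 5 of class A, 13 of class B and 29 of class C, of which 45 are annotated as protein-coding and 2 as pseudogenes.

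A DNAJ protein carries a J domain, a short helical module whose conserved histidine-proline-aspartate loop stimulates the ATPase of an Hsp70, so that the Hsp70 closes on a client protein. Class A members share the domain layout of bacterial DnaJ with its zinc-binding region, class B members lack that region but keep a glycine- and phenylalanine-rich stretch, and class C members share the J domain alone. Because different members sit in the cytosol, on synaptic vesicles, in the endoplasmic reticulum, in mitochondria and at the ribosome, the family decides where and on which clients Hsp70 acts. In neurons it is known for vesicle proteins such as cysteine string protein and auxilin and for members that keep aggregation-prone proteins soluble.

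The RNA came from the hippocampus and the cortex of NMRI mice, an outbred stock, and all mice had undergone olfactory bulbectomy, the surgical removal of the olfactory bulbs. The 4 groups, with 5 libraries each, were the hippocampus with YB-1, the hippocampus with HSP70, the cortex with YB-1 and the cortex with HSP70. YB-1, a recombinant cold shock protein that binds DNA and RNA, was given through the nose at 6.4 µg, and HSP70, a recombinant human heat shock protein and itself the chaperone that DNAJ proteins drive, at 4 µg. Both were given once a day for 21 days beginning 14 days after surgery. Mice without surgery or with vehicle were not analysed here, so each treatment comparison sets YB-1 against HSP70 with no further group to show which of them moved. The labels call the libraries of a group separate samples without naming the animals, and their ages are not stated, so p-values measure the spread between these libraries.

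Levels are given as CPM, read counts scaled to a common library size by the trimmed mean of M-values. The libraries held 6414215 to 15148078 assigned reads, and depth did not overlap between the cortical groups, at 6414215 to 10763465 with YB-1 and 12283392 to 15148078 with HSP70. Between 0.118% and 0.212% of a library's assigned reads fell on DNAJ genes. The tissue labels were checked against marker genes: 5 of 6 hippocampal neuron markers were higher in hippocampus than in cortex, all but Wfs1 (log2 fold change -0.21), and 5 of 6 cortical neuron markers were lower, all but Tshz2 (1.19, higher in hippocampus). All 4 oligodendrocyte, all 4 choroid plexus, all 5 ependyma and all 3 thalamus markers were also higher in hippocampus, and 2 of 5 general neuron markers were lower.

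Libraries also differed in how their expression deviated with the GC content of the transcripts, in a way the labels do not record. Over 14604 genes, the rank correlation of a library's deviations from its group means with GC content ran from -0.65 in Cortex HSP70 replicate 1 to 0.47 in Hippocampus YB-1 replicate 2. Cortex HSP70 replicate 1 stood apart for the family, being the highest of its 5 libraries for 23 of the 40 tested members. Cortex YB-1 replicate 4 was the lowest of its group for 19 members and Hippocampus HSP70 replicate 5 for 16. Values without such libraries, or with each library's GC trend removed, are given with several of the results below.

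The J domain itself was read from the annotated coding sequences (GENCODE M21, GRCm38), and 44 of the 45 coding members carry 1 His-Pro-Asp triplet. Shown are 90 bases of coding sequence around it, 12 codons before and 15 after, for the members that vary most strongly together between libraries (the first 3) and against them (the next 5), followed by the 1 coding member that lacks the triplet. These members were chosen after their values had been seen. Capitals mark the His-Pro-Asp codons, and in Dnajb13 the histidine and proline codons and the codon that follows.
Dnaja1 (chromosome 4): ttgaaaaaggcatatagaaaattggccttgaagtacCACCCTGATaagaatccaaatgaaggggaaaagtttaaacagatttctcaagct
Dnaja2 (chromosome 8): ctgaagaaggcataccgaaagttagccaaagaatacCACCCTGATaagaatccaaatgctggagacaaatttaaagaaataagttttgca
Dnajc6 (chromosome 4): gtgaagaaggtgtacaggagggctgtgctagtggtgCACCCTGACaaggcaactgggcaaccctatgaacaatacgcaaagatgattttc
Dnajc4 (chromosome 19): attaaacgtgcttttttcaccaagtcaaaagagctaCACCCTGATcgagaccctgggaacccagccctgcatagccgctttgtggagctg
Dnajb2 (chromosome 1): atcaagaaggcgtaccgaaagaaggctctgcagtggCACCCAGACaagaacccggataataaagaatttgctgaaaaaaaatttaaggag
Dnajc11 (chromosome 4): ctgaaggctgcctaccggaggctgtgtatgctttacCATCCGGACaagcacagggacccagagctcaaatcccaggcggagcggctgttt
Dnajb1 (chromosome 8): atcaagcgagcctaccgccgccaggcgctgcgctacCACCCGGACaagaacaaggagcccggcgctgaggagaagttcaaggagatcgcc
Dnajc30 (chromosome 5): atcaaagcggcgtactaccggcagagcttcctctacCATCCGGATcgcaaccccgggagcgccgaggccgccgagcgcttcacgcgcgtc
Dnajb13 (chromosome 7): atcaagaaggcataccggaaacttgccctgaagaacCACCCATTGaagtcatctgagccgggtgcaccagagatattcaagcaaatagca
The triplet lies at residue 34 of 397 in Dnaja1 and at residue 32 of 340 in Dnajb1, near the start of the protein, and at residue 932 of 968 in Dnajc6, near its end. The surroundings of the triplet differ in base composition: GC content was 35.6% in the window of Dnaja1 and 64.4% in that of Dnajb1. Dnajb13, a protein of 316 residues that belongs to the radial spokes of motile cilia and of sperm flagella, has its first His-Pro pair at residue 32, followed by a codon for leucine.

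Of the 47 members, 40 had enough reads to be tested in the hippocampus and across tissues and 38 in the cortex, where Dnajb3 and Dnajb13 fell below the filter. The other 7 held 0 to 4 reads in any library: Dnajb7, Dnajb8, Dnajc5b, Dnajc5g, Dnajc22 and the pseudogenes Dnaja1-ps and Dnajc19-ps. Dnaja1-ps and Dnajc5g had no read in any of the 20 libraries. Dnajc5b and Dnajc5g are the close relatives of Dnajc5, so the cysteine string protein family was represented by Dnajc5 almost alone.

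Compared per length, as CPM per kilobase of exon, the most abundant member was Dnajc5 (ENSMUSG00000000826), cysteine string protein of synaptic vesicles, at 34.8 ± 5.05 (SD over 20 libraries). Dnajb2, an Hsp70 co-chaperone enriched in neurons, followed at 25.9 ± 2.89, Dnajc8, a splicing factor, at 23.8 ± 3.09, Dnaja2, the constitutive class A member of the cytosol, at 23.5 ± 3.91, and Dnajc27, a small GTPase-like protein with a J domain, at 21.0 ± 2.50. In this order each of the 4 members after Dnajc5 lay within 1 SD of its neighbour. Of the heat-inducible members on the same scale, Dnajb1, the Hsp40 first described in heat shock, was at 17.2 ± 2.62, Dnaja4 at 6.66 ± 1.12, Dnaja1 at 5.01 ± 1.23 and Dnajb4 at 1.36 ± 0.38. The lowest tested members were Dnajc25 at 0.30 ± 0.12 and Dnajc21, a factor of ribosome assembly, at 0.48 ± 0.27.

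**Figure D1:**
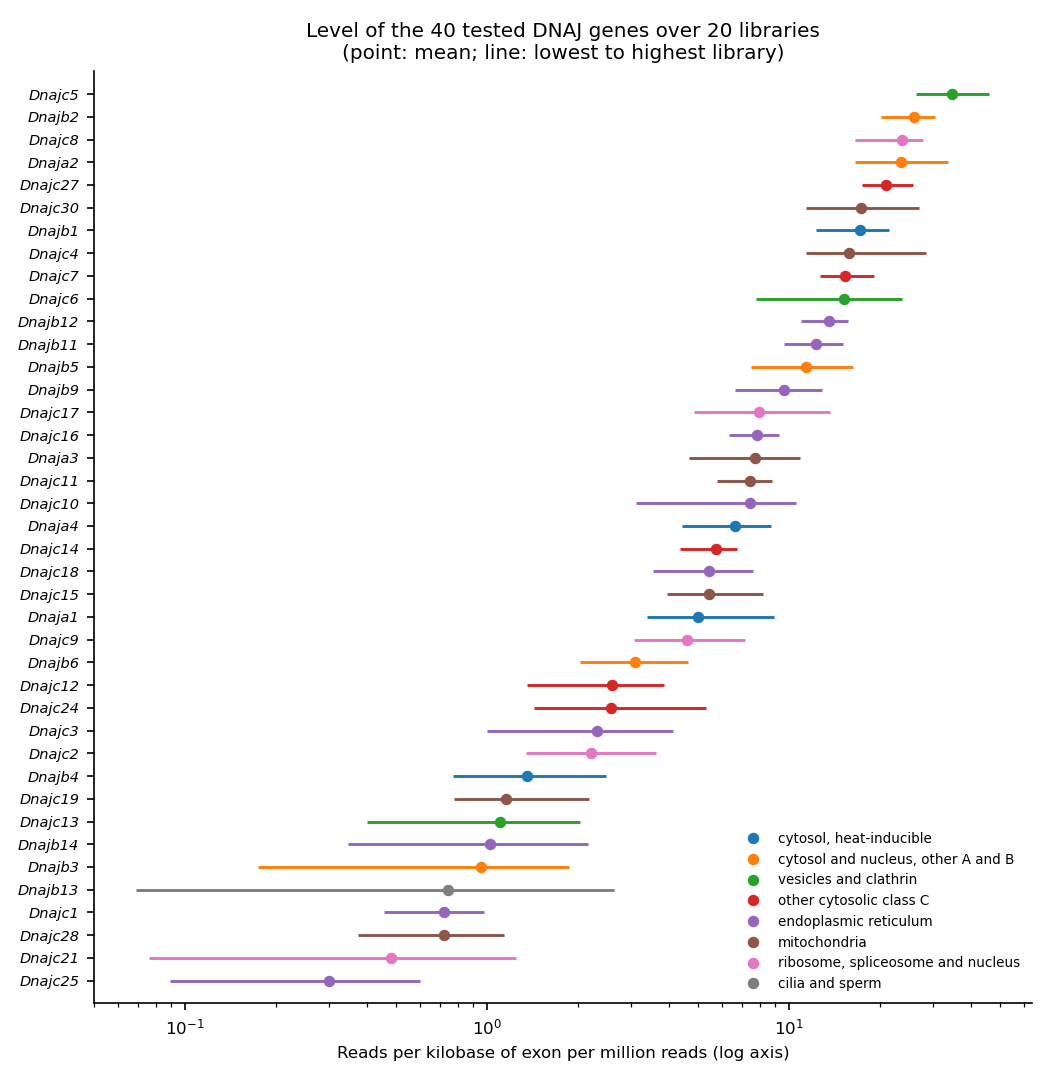
Mean level per length (point) and range over the 20 libraries (line) of the 40 tested DNAJ genes, in CPM per kilobase of exon on a log axis, coloured by role. Dnajc5 is the highest at 34.8 and Dnajc25 the lowest at 0.30.

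The first question was whether the family differs between the tissues. It differed little: 2 of the 40 members passed the test between hippocampus and cortex over both treatments, where 15.9% of the 14616 genes tested passed (edgeR quasi-likelihood test, Benjamini-Hochberg adjusted over all genes). Dnajb13 was higher in hippocampus (1 member, where 8.55% of all genes were called higher) and Dnajb1 lower (1 member, where 7.32% were called lower). The median log2 fold change of the members was -0.03, against 0.00 over all genes, and the 95% interval of 38 of the 40 lay within a 2-fold difference in either direction.

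Dnajb13 (ENSMUSG00000030708) showed the largest tissue difference of the 40 members. It had 3.097, 4.83, 2.79, 3.38 and 2.14 CPM in the hippocampus with YB-1 and 1.05, 0.707, 1.83, 5.62 and 7.203 CPM in the hippocampus with HSP70. In the cortex it had 1.34, 0.271, 1.61, 1.83 and 0.188 CPM with YB-1 and 0.761, 0.496, 0.267, 0.607 and 0.435 CPM with HSP70. All 5 hippocampal libraries with YB-1 lay above all 5 cortical ones, which 6.43% of all tested genes did in either direction; with HSP70 the tissues overlapped, because hippocampal replicate 2 lay below cortical replicate 1. The log2 fold change over both treatments was 2.14 ± 0.42 (SE; 95% interval 1.28 to 3.002; adjusted p = 0.000557), with the hippocampus higher in 10 of 10 same-numbered pairs. The gene was low, with 2 to 77 reads per library, and its 2 highest values came from hippocampal replicates 4 and 5 with HSP70.

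Within a treatment, Dnajb13 was at 2.64 ± 0.60 on the log2 scale with HSP70 (adjusted p = 0.00447), the 1 member called of 40, against 8.61% of all genes. With YB-1 it was at 1.64 ± 0.58 (adjusted p = 0.104), and 0 of 40 members were called, against 6.51% of all genes. With the replicate number as a block the YB-1 value was 1.78 and passed (adjusted p = 0.043). The difference between the treatments in this tissue contrast was -0.996 ± 0.82 and did not pass (adjusted p = 1); it was -0.528 without hippocampal HSP70 replicate 5 and -0.525 with the replicate block.

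Markers of ependyma, the ciliated lining of the ventricles, moved with Dnajb13. All 5 were higher in hippocampus, from 1.02 for Rsph1, another radial spoke gene, to 2.77 for Tmem212 on the log2 scale, and Foxj1, the master regulator of motile cilia, was 1.89 higher. Their summed level was 32.2 to 74.9 CPM in the hippocampus with YB-1 and 25.2 to 82.8 CPM in the hippocampus with HSP70. In the cortex it was 12.7 to 24.8 CPM with YB-1 and 6.29 to 15.9 CPM with HSP70, so no library was without these markers. Set against that sum, which does not contain Dnajb13, the CPM of Dnajb13 amounted to 4.70% to 9.63% and 2.80% to 8.70% in the hippocampus with YB-1 and with HSP70, and 1.23% to 12.7% and 2.78% to 12.1% in the cortex with YB-1 and with HSP70, ranges that overlap between the tissues. The part of the ependyma in the Dnajb13 difference was not tested. In bulk tissue, fewer cells of a type and less RNA per cell cannot be told apart.

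Exons of Dnajb13 also overlap those of Ucp2 on the opposite strand. The library kit is directional, but the strand setting of the counting is not stated, so reads of the pair cannot be told apart with certainty. Ucp2 was at 170.5 and 144.5 CPM in the hippocampus with YB-1 and HSP70 and at 175.3 and 128.4 CPM in the cortex with YB-1 and HSP70 (means, n = 5), with a tissue difference of 0.07 ± 0.14 (log2, adjusted p = 0.836). Of the 47 members, 19 share exon positions with another annotated gene on either strand. For Dnajc7, for example, the neighbour Cnp, an oligodendrocyte gene, was 1.05 ± 0.11 higher in hippocampus on the log2 scale (adjusted p = 1.6e-07), while Dnajc7, a tetratricopeptide co-chaperone of Hsp70 and Hsp90, was at -0.03 ± 0.09.

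Dnajb1 (ENSMUSG00000005483), the canonical heat shock Hsp40 of the cytosol, was the 1 member called lower in hippocampus. It had 41.97, 60, 49.8, 48.4 and 52.5 CPM in the hippocampus with YB-1 and 47.1, 43.9, 53.5, 39.5 and 60.2 CPM in the hippocampus with HSP70. In the cortex it had 53.3, 68.7, 53.7, 68.7 and 58.1 CPM with YB-1 and 55.1, 61.1, 55.5, 65.3 and 63.9 CPM with HSP70. The groups overlapped, yet the hippocampal library was the lower one in 10 of 10 same-numbered pairs. The log2 fold change was -0.28 ± 0.09 (95% interval -0.47 to -0.09; adjusted p = 0.0389), a difference of less than 1.5-fold. The call was marginal: without the low-count filter the adjusted p was 0.0862, and it lay between 0.0511 and 0.0784 when any 1 of 12 libraries was left out (hippocampus with YB-1 replicates 1, 3, 4 and 5, hippocampus with HSP70 replicates 1, 2 and 4, cortex with YB-1 replicates 2 and 4, cortex with HSP70 replicates 2, 4 and 5). With each library's GC trend removed the difference was -0.33 (adjusted p = 0.00356). Within the treatments it was -0.26 ± 0.13 with YB-1 (adjusted p = 0.336) and -0.30 ± 0.13 with HSP70 (adjusted p = 0.179); the HSP70 value passed with the GC trend removed, at -0.37 (adjusted p = 0.0296).

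Dnaja4 (ENSMUSG00000032285), a heat-inducible class A member, pointed the other way from Dnajb1 without passing. It had 24.6, 31.4, 29.9, 19.7 and 25.3 CPM in the hippocampus with YB-1 and 22.99, 28.9, 27.3, 28.6 and 23.6 CPM in the hippocampus with HSP70. In the cortex it had 24.6, 15.8, 22.6, 24.4 and 20.4 CPM with YB-1 and 20.3, 20, 18.5, 24.5 and 24.4 CPM with HSP70. The groups overlapped, with the hippocampal library higher in 7 of 10 pairs, and the log2 fold change was 0.28 ± 0.11 (95% interval 0.06 to 0.51; adjusted p = 0.078). It passed when hippocampal YB-1 replicate 4, the lowest hippocampal library, was left out (0.33, adjusted p = 0.0333). Wdr61, whose exons overlap Dnaja4 on the opposite strand, was at 0.20 ± 0.10 (adjusted p = 0.228). The other heat-inducible members, Dnaja1 at -0.12 ± 0.13 and Dnajb4 at -0.15 ± 0.18, did not pass, so 1 of the 4 was called.

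**Figure D2:**
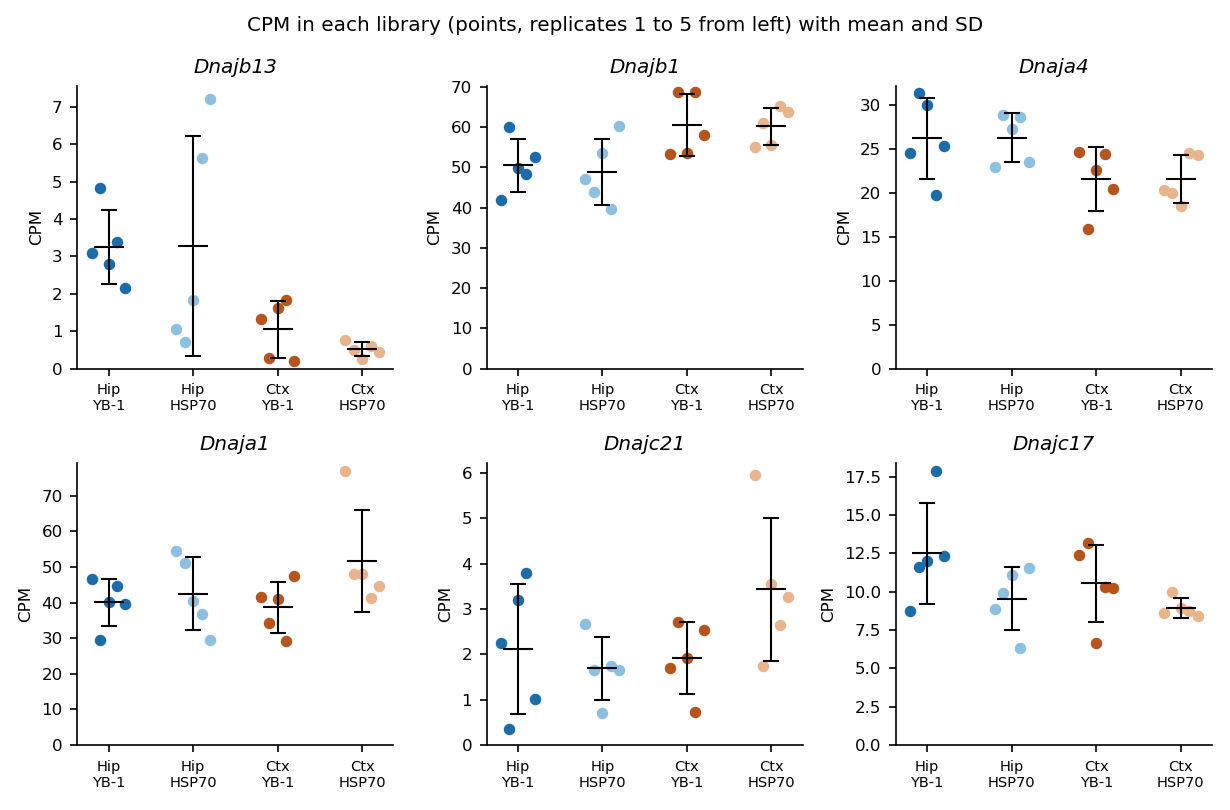
CPM in each library (points, replicates 1 to 5 from left) with group mean and SD for 6 DNAJ genes, in hippocampus (Hip) and cortex (Ctx) with YB-1 and HSP70. Dnajb13 is higher and Dnajb1 lower in hippocampus; for Dnaja1 and Dnajc21, which did not pass, the highest cortical library is HSP70 replicate 1, which for Dnaja1 lies far above the other 4 of its group.

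Because the heat-inducible members are targets of heat shock factor 1, promoter sequence was searched for the core of its binding element, GAANNTTC or TTCNNGAA on either strand, from 250 bases before to 50 bases after the start (RefSeq, GRCm38.p6; 37 members with a promoter). It was found in 8 of 50 member promoters and in 15.1% of all 32851 promoters. The 7 members with a match were Dnaja1, Dnaja4, Dnajb4, Dnajb6, Dnajc5g, Dnajc10 and Dnajc27. These letters were not in the windows of either annotated start of Dnajb1, which says only that they are not in this window. Capitals mark the matches in the windows of 3 members, of which Dnajb6, a suppressor of polyglutamine aggregation, holds overlapping matches, and in the second promoter of Dnaja4, shown whole because it holds 2 matches.
Dnaja1 (chr4:40722338-40722357, plus strand): cctctaGAAAATTCtacgag
Dnajb4 (chr3:152193846-152193865, minus strand): tcgctgTTCTAGAAagtaca
Dnajb6 (chr5:29735846-29735870, plus strand): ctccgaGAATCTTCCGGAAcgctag
Dnaja4 (chr9:54699309-54699608, plus strand): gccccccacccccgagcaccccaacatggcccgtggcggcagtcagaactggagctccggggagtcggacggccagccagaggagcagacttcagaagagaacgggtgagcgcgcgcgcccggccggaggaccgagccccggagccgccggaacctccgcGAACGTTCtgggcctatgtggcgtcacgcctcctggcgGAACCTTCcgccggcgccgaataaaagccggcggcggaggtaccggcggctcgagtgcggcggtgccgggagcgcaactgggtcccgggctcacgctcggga
None of the 4 members shown passed between the tissues, and their differences were -0.12 for Dnaja1, -0.15 for Dnajb4, -0.12 for Dnajb6 and 0.28 for Dnaja4 on the log2 scale. An X-box core bound by regulators of cilia genes, GTTGCC or GGCAAC, was found in promoters of 7 members and 12.5% of all promoters. Its letters were not in the Dnajb13 window. No other form of the X-box was searched for, and whether that window holds one was not tested.

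The remaining roles held no member that passed between the tissues. None of the 10 members of the endoplasmic reticulum was called, and 8 of them had negative values, with a median of -0.11; Dnajc10, a disulfide reductase of that compartment, was at -0.25 ± 0.15 (adjusted p = 0.28, and -0.16 without hippocampal HSP70 replicate 5). None of the 7 mitochondrial members was called, from -0.19 to 0.19; Dnajc15, a regulator at the inner membrane, was the upper end at 0.19 ± 0.11 (adjusted p = 0.276, and 0.12 without hippocampal YB-1 replicate 4). The 3 vesicle and clathrin members lay between -0.21 and -0.08: Dnajc5 at -0.09 ± 0.10, Dnajc6, the clathrin-uncoating protein auxilin, at -0.08 ± 0.16, and Dnajc13, an endosomal factor, at -0.21 ± 0.22. Of the 5 members at the ribosome, spliceosome and in the nucleus, Dnajc2, a ribosome-bound co-chaperone, was at -0.32 ± 0.17 (adjusted p = 0.229, and -0.21 without cortical HSP70 replicate 1). The other cytosolic members included Dnajc12, a partner of the aromatic amino acid hydroxylases, at 0.19 ± 0.16 and Dnajb2 at -0.02 ± 0.09.

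The second question was whether YB-1 and HSP70 differ in their effect on the co-chaperones of Hsp70. In the hippocampus 0 of 40 members passed, and 0 of the 13723 genes tested passed (0.0%). At an unadjusted p under 0.05 the counts were 0 members and 329 genes (2.4%). The summed level of 5 meninges markers did not overlap between the hippocampal groups, at 88.25 to 108.7 CPM with YB-1 and 127.9 to 155.4 CPM with HSP70. Its part in the member values was not tested. The median member difference was -0.01 on the log2 scale, against 0.00 over all genes. The 95% interval lay within 2-fold for 34 members and within 1.5-fold for 22, so for those members the data limit a difference to that size.

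On the side of higher values with YB-1, the 3 smallest p belonged to Dnajc17, Dnajc19 and Dnajb11. Dnajc17 (ENSMUSG00000034278), a J-domain protein linked to splicing, had 8.76, 11.6, 11.98, 17.8 and 12.3 CPM with YB-1 and 8.87, 9.89, 11.1, 6.35 and 11.6 CPM with HSP70, a log2 fold change of 0.39 ± 0.23. The groups overlapped, and without YB-1 replicate 4, its highest library, the value was 0.22. Dnajc19 (ENSMUSG00000027679), of the mitochondrial import motor, had 3.63, 3.14, 5.59, 8.79 and 4.57 CPM with YB-1 and 4.48, 4.95, 3.56, 3.94 and 3.75 CPM with HSP70, at 0.31 ± 0.30. Here too replicate 4 with YB-1 was the high library, and without it the value was 0.03. Dnajb11 (ENSMUSG00000004460), the main soluble co-chaperone of BiP in the endoplasmic reticulum, had 40.6, 41.05, 39.9, 40.3 and 45.4 CPM with YB-1 and 39.2, 37.9, 37.03, 44.1 and 31.8 CPM with HSP70, at 0.12 ± 0.13. It was among the least variable members, and without HSP70 replicate 5, the lowest library, the value was 0.07.

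On the lower side were Dnajc12, Dnajc27 and Dnajc24. Dnajc12 (ENSMUSG00000036764) had 13.1, 8.57, 13.7, 11.9 and 7.92 CPM with YB-1 and 8.3, 16.96, 11.7, 17.3 and 14.4 CPM with HSP70, a log2 fold change of -0.31 ± 0.24. Dnajc27 (ENSMUSG00000020657) had 101, 92.8, 124, 93.3 and 94 CPM with YB-1 and 109, 120.1, 106, 118 and 106 CPM with HSP70, at -0.15 ± 0.12. In both genes the groups overlapped, and Dnajc27 moved to -0.23 without YB-1 replicate 3. Dnajc24 (ENSMUSG00000027166), needed for the diphthamide modification of elongation factor 2, had 3.31, 3.14, 3.33, 3.24 and 3.45 CPM with YB-1 and 4.102, 4.24, 2.24, 7.29 and 2.85 CPM with HSP70, at -0.34 ± 0.32. HSP70 replicate 4 alone was high, and without it the value was -0.03. For each of the 6 genes edgeR gave an adjusted p of 1.

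By role, the 4 heat-inducible members lay close to no difference in the hippocampus, from -0.09 for Dnaja1 to 0.05 for Dnajb1, each with an interval within 1.5-fold. The sign of each of these 4 changed when certain single libraries were left out, and that of Dnaja4 also when libraries were thinned to equal depth. The 3 vesicle members were likewise near 0, with Dnajc5 at -0.01 ± 0.14. The 7 mitochondrial members ranged from -0.32 to 0.31 and the 10 of the endoplasmic reticulum from -0.13 to 0.20, with 3 and 5 on the positive side. Dnajb13 was at -0.01 ± 0.53, with an interval of -1.15 to 1.13 that allows a 2-fold difference either way.

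In the cortex 0 of 38 members passed, and 0 of the 14114 genes (0.0%). At an unadjusted p under 0.05 the counts were 2 members, Dnaja1 and Dnajc21, and 774 genes (5.48%). The summed level of 5 striatum markers reached 174 CPM in Cortex YB-1 replicate 4. The median of that group was 44.2 CPM, and the libraries with HSP70 had 31.1 to 47.8 CPM. Without Cortex YB-1 replicate 4, Dnaja1 was at -0.34 and Dnajc21 at -0.65, and 0 members passed. As none had passed with it either, this count cannot show whether the striatum markers play a part. The median member difference was -0.04 on the log2 scale, against 0.01 over all genes, and the interval lay within 2-fold for 36 members and within 1.5-fold for 22. No member had groups that did not overlap in either tissue, as 0.474% of the genes tested in the hippocampus and 0.829% in the cortex had.

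Dnaja1 (ENSMUSG00000028410), the farnesylated class A co-chaperone of the cytosol, was on the lower side in the cortex. It had 41.5, 34.3, 40.9, 29.1 and 47.4 CPM with YB-1 and 76.9, 47.9, 48.03, 41.3 and 44.6 CPM with HSP70. The log2 fold change was -0.42 ± 0.18 (95% interval -0.80 to -0.04; edgeR adjusted p = 0.858). HSP70 replicate 1, the library with the strongest GC trend, was far above the other 4, and without it the value was -0.24. With the GC trend removed it was -0.20. Dnajc21 (ENSMUSG00000044224) had 1.69, 2.71, 1.92, 0.733 and 2.54 CPM with YB-1 and 5.95, 1.74, 3.54, 2.66 and 3.26 CPM with HSP70, at -0.82 ± 0.37 (edgeR adjusted p = 0.858). The same library was its highest; without it the value was -0.53, and with the GC trend removed -0.61. Dnaja2 (ENSMUSG00000031701) had 69.01, 58.6, 72.5, 49.1 and 75.9 CPM with YB-1 and 100.2, 72.5, 80.1, 78.2 and 66.04 CPM with HSP70, at -0.29 ± 0.15. It shared its highest library with Dnaja1 and Dnajc21, without which the value was -0.19, and with the GC trend removed it was -0.12.

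On the higher side in the cortex, Dnajc30 (ENSMUSG00000061118), a mitochondrial member, had 33.1, 32.4, 24.8, 31.2 and 26.6 CPM with YB-1 and 22.1, 28.01, 21.5, 28.6 and 29.6 CPM with HSP70, a log2 fold change of 0.19 ± 0.15 (0.12 with the GC trend removed). Dnajc17 had 12.4, 13.1, 6.66, 10.3 and 10.3 CPM with YB-1 and 8.58, 9.998, 8.95, 8.73 and 8.41 CPM with HSP70, at 0.24 ± 0.20. Its YB-1 libraries spread widely while its HSP70 libraries lay close together. Without YB-1 replicate 2 the value was 0.14, and without YB-1 replicate 3 it was 0.37. Dnajc2 (ENSMUSG00000029014) had 11.1, 13.9, 16.6, 11.4 and 14.1 CPM with YB-1 and 18.3, 10.9, 11.02, 7.82 and 8.41 CPM with HSP70, at 0.25 ± 0.23. The highest library was again HSP70 replicate 1. The value was 0.49 without it (edgeR adjusted p = 1) and 0.48 with the GC trend removed, but 0.14 without HSP70 replicate 4, 0.16 without HSP70 replicate 5 and 0.16 without YB-1 replicate 3. The adjusted p of these 3 genes was at least 0.887. Depth does not overlap between the cortical treatments, and treatment and depth cannot be told apart there by design. With all libraries thinned to the smallest total, 0 members passed, as before thinning. Because none had passed before, this count cannot show whether depth plays a part.

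By role in the cortex, Dnajb1 was at 0.01 ± 0.13 and Dnaja4 at 0.00 ± 0.16, signs that changed with the processing, and Dnajb4, at -0.19 ± 0.26, was at 0.05 without HSP70 replicate 1 and at 0.01 with the GC trend removed. Of the 10 endoplasmic reticulum members 7 had negative values, with a median of -0.05, and of the 7 mitochondrial members 4 had positive ones, with a median of 0.01. Dnajc5 was at 0.00 ± 0.14, with an interval of -0.30 to 0.30. None of the 40 members passed a test of whether the treatment difference itself differs between the tissues (0 of 14616 genes, 0.0%; 0 members and 227 genes, 1.55%, at an unadjusted p under 0.05). The members with the smallest p in that test were Dnajc21 at 1.12 ± 0.66 and Dnajb6 at 0.39 ± 0.25 (log2, hippocampal minus cortical effect).

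**Figure D3:**
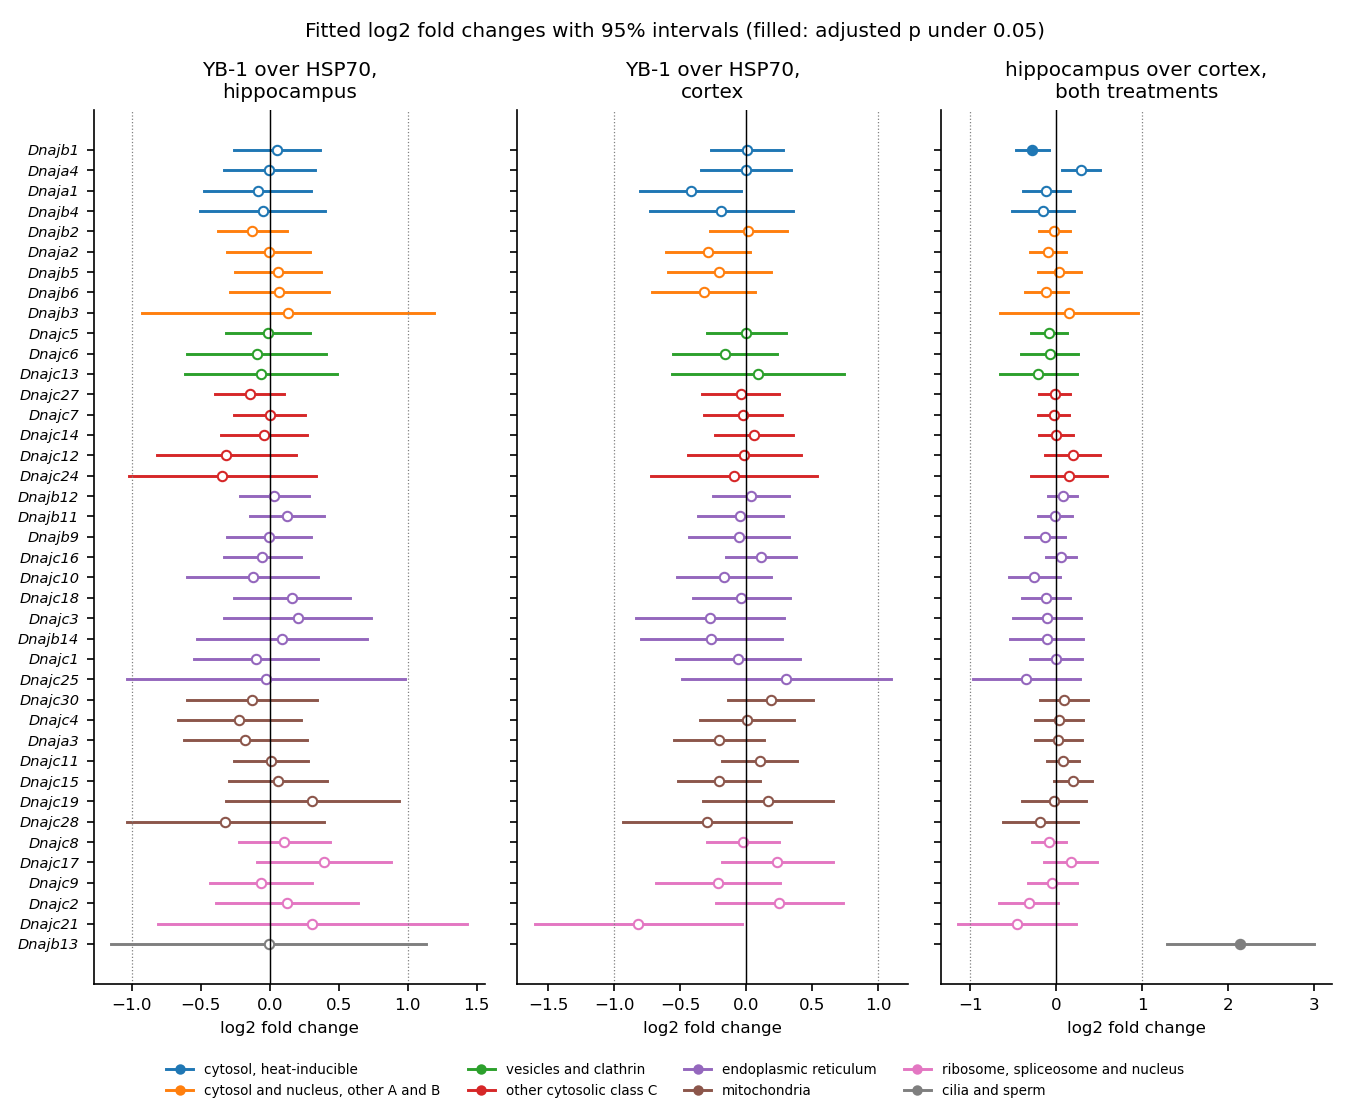
Log2 fold changes with 95% intervals of the tested DNAJ genes for YB-1 over HSP70 in hippocampus, the same in cortex, and hippocampus over cortex, coloured by role; filled points passed at an adjusted p under 0.05. Only Dnajb13 (2.14) and Dnajb1 (-0.28) passed, both between tissues; dotted lines mark a 2-fold difference.

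The Hsp70 proteins and other partners on which the family acts were read beside it. Of 31 listed partner genes 30 were tested. Hspa8, the constitutive Hsp70 of the brain, was at 1010 ± 69.3 CPM in the hippocampus with YB-1 and 1030 ± 119 CPM with HSP70, and at 980 ± 86.8 CPM in the cortex with YB-1 and 971 ± 109 CPM with HSP70 (SD, n = 5), with a tissue difference of 0.06 ± 0.08 on the log2 scale. Between treatments 0 partners passed in either tissue; those with the smallest p were Hsp90aa1, the inducible Hsp90, at 0.38 ± 0.21 in the hippocampus, and St13, the Hsp70-interacting protein Hip, at -0.43 ± 0.20 in the cortex. The Hsp90aa1 value was 0.14 without hippocampal YB-1 replicate 4, and the St13 value -0.24 with the GC trend removed. Between tissues 3 of the 30 passed (10%, against the 15.9% of all genes). Bag3, a nucleotide exchange factor of selective autophagy, was higher in hippocampus at 0.38 ± 0.10 (adjusted p = 0.0124) and Hspa2, a further Hsp70, at 0.40 ± 0.13 (adjusted p = 0.0351). Hsp90aa1 was lower at -0.43 ± 0.13 (adjusted p = 0.0235), the same direction as Dnajb1. The Bag3 call was lost without the low-count filter (adjusted p = 0.0594) and in thinned libraries. The Hspa2 call was lost with the GC trend removed (0.0847) and without any 1 of 11 libraries (hippocampus with YB-1 replicates 1 and 2, hippocampus with HSP70 replicates 1, 3 and 4, cortex with YB-1 replicates 2, 4 and 5, cortex with HSP70 replicates 2, 4 and 5; adjusted p 0.0502 to 0.0808), and that of Hsp90aa1 without hippocampal HSP70 replicate 4 (0.0503).

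Whether co-chaperones vary between libraries together with a known partner was examined for 3 pairs in each tissue, 6 relations in all, over 10 libraries after removing the treatment means. Dnajb11 and Hspa5 (BiP), which work together in the endoplasmic reticulum, varied together in the cortex, with Pearson's r of 0.875 (permutation p = 0.00084, adjusted p = 0.00504) and Spearman's rho of 0.818 (permutation p = 0.00616, adjusted p = 0.037). Without the 2 libraries farthest from the median r was 0.793, and with the GC trend removed 0.839. Large correlations were common in the cortical libraries, where 12.3% of all gene pairs had r of at least 0.7 in size. With the GC trend removed the share was 7.28%. The permutation test is against no correlation and does not compare this pair with other gene pairs. In the hippocampus the same pair gave r of -0.242 and rho of -0.03 (permutation, adjusted p = 0.537 and 0.947), with r of -0.621 once the GC trend was removed and -0.05 without YB-1 replicate 5; whether the tissues differ in this relation was not tested. Dnajb1 and Hsph1, the Hsp110 with which it forms a disaggregase, gave r of -0.466 (adjusted permutation p = 0.263; rho -0.418) in the hippocampus and -0.699 (p = 0.0291 by permutation, adjusted p = 0.0874; rho -0.648) in the cortex. Without the 2 farthest libraries these were -0.201 in the hippocampus and -0.551 in the cortex, and the cortical value was -0.388 with the GC trend removed. Dnaja1 and Hsp90aa1 gave r of 0.223 (adjusted permutation p = 0.537; rho 0.261) in the hippocampus and 0.542 (adjusted permutation p = 0.207; rho 0.394) in the cortex, and the cortical value was -0.032 without the 2 farthest libraries and 0.152 with the GC trend removed. Promoters of Dnajb11 and of Dnajc3, an inhibitor of eIF2-alpha kinases, were searched for the endoplasmic reticulum stress element on either strand. The search took a single form of the element, with a fixed spacing, and no other form was searched for. That form was found in Dnajc3 alone among the 37 members and in 0.119% of all promoters. It was not in the Dnajb11 window, and whether that window holds another form was not tested. The Dnajc3 match is shown in capitals because it is the 1 match to this form in the family.
Dnajc3 (chr14:118937821-118937851, plus strand): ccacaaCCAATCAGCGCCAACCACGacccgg
Dnajc3 had a tissue difference of -0.11 ± 0.19 and a YB-1 over HSP70 difference of 0.20 ± 0.25 in hippocampus and -0.28 ± 0.27 in cortex, none of which passed.

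The members differed widely in how much they varied between libraries of 1 group. The within-group SD of log2 CPM was lowest for Dnajb12 at 0.14, an endoplasmic reticulum membrane member, and Dnajc16 at 0.15, and highest for the low genes Dnajb13 at 0.93, Dnajc21 at 0.80 and Dnajb3 at 0.78. Much of the variation was shared. After removing group means, 8.33% of the 780 pairs of tested members had r of at least 0.7 in size over the 20 libraries, against 4.78% of all gene pairs; 43 pairs were positive and 22 negative. The class A pair Dnaja2 and Dnaja1 had the highest r, 0.92, and Dnajb2 with Dnaja1 was among the most opposed at -0.87. These correlations are descriptions of 20 libraries and carry no test.

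The leading axis of the 40 members held 40.4% of their variance, and both base composition and exon length ran along it. The 10 members with r of at least 0.7 to the axis, led by Dnaja1, Dnaja2 and Dnajc6, had exon GC contents of 41.2% to 50.5% (median 45.1%). The 5 at or below -0.7, Dnajc4, Dnajb2, Dnajc11, Dnajb1 and Dnajc30, had 52.6% to 57.4% (median 54.5%), a range that does not overlap the first. The windows printed above did not separate the sides fully. Those of Dnajc4, Dnajc11, Dnajb1 and Dnajc30 were higher in GC than those of Dnaja1, Dnaja2 and Dnajc6. The Dnajb2 window was lower in GC than the Dnajc6 window. Over the 40 members the rank correlation with exon GC was -0.53, and with GC at the third codon position -0.55. A library's score on the axis had r of -0.93 with the rank correlation of all genes' deviations with GC in that library. With the rank correlation of deviations with exon length it had r of 0.88, and over the members the rank correlation with exon length was 0.34. These values come from the same counts and are descriptions; GC content and length were not separated. Cortex HSP70 replicate 1 had the highest score, 0.41, and Hippocampus HSP70 replicate 5 the lowest, -0.44.

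**Figure D4:**
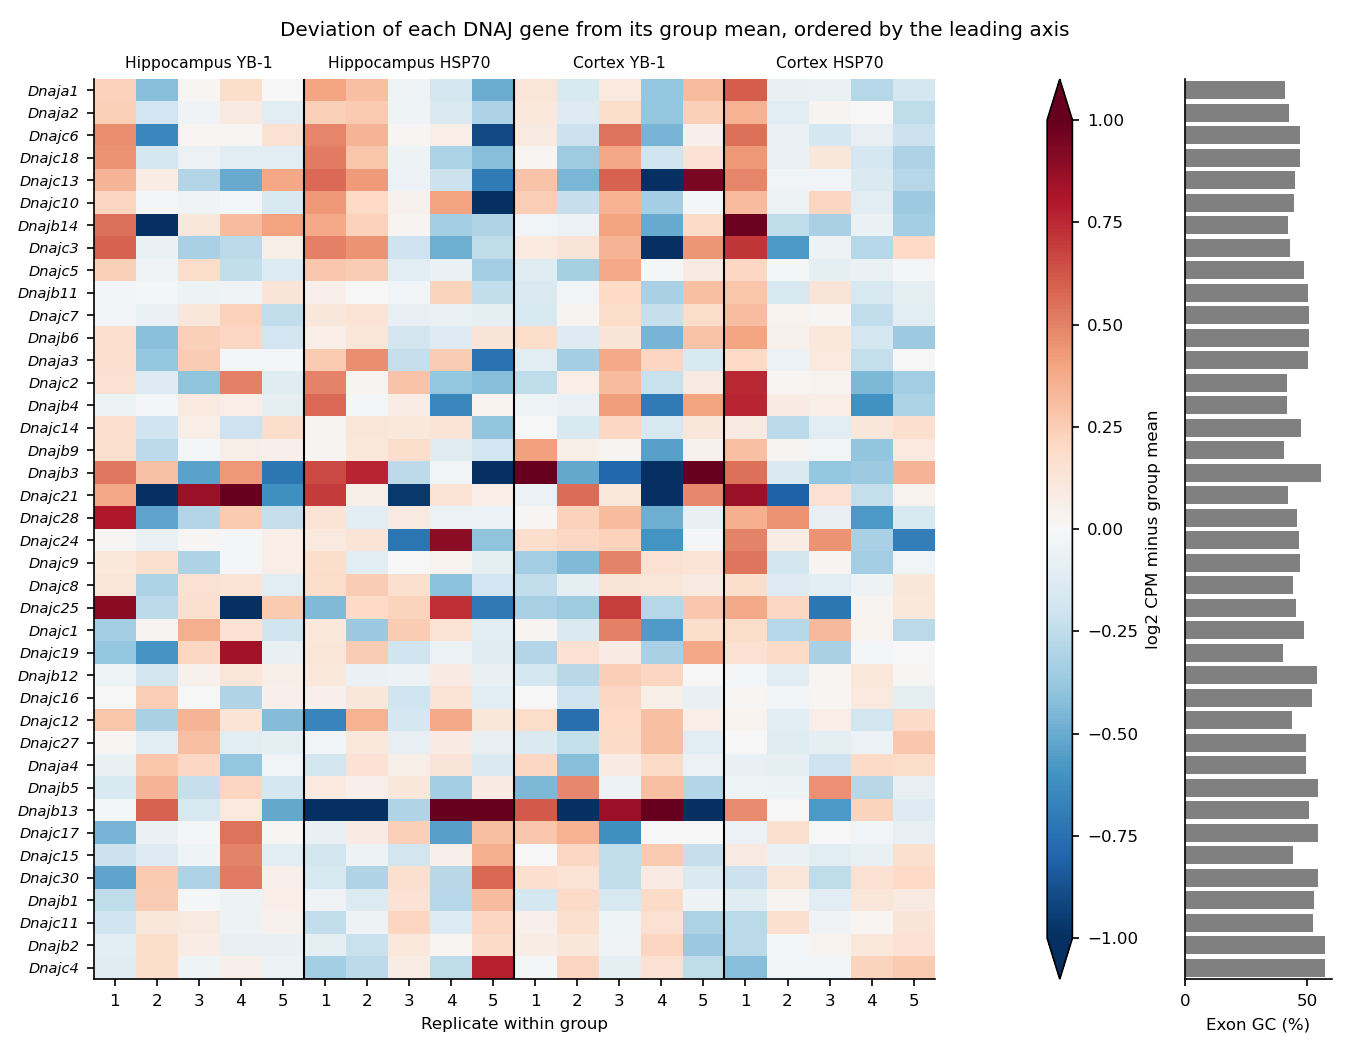
Deviation of each tested DNAJ gene from its group mean (log2 CPM) in the 20 libraries, rows ordered by correlation with the leading axis, with exon GC content at the right. Genes such as Dnaja1 at the top and Dnajc4 at the bottom deviate in opposite directions in the same libraries, and Cortex HSP70 replicate 1 is high for the upper rows.

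**Figure D5:**
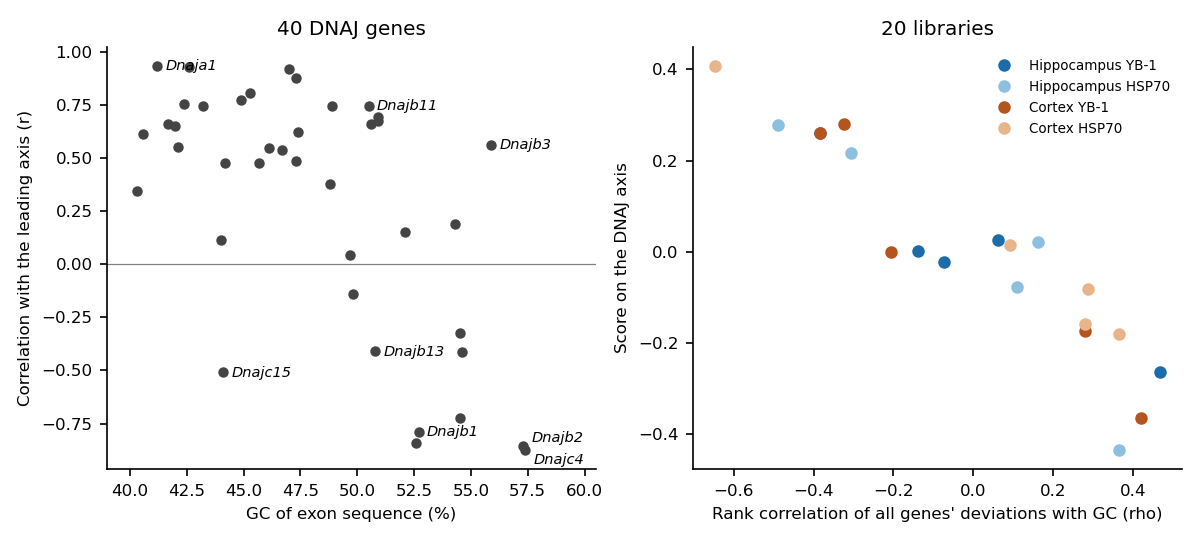
Left, correlation of each of the 40 members with the leading axis against exon GC content; right, axis score of each of the 20 libraries against the rank correlation of all genes' deviations with GC in that library. The 5 members at -0.7 or below all have exon GC of at least 52.6%, while Dnajb3, also high in GC, lies on the positive side, and library scores fall with the GC trend (r = -0.93).

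With each library's GC trend removed, the share of member pairs at 0.7 or beyond was 1.67%, against 2.23% of all gene pairs. The Dnaja2 and Dnaja1 correlation was then 0.14, that of Dnajc6 with Dnaja1 0.37, against 0.87 as measured, and that of Dnajb2 with Dnajc11 0.23, against 0.83. Of all member pairs, 6 were then at 0.7 or above and 7 at -0.7 or below, and not all of these had reached that size as measured. Among them, Dnajc5 with Dnajc18 had 0.72, against 0.82, and Dnajc7 with Dnajb6 0.75, against 0.72. Dnajc15 with Dnajc13 had -0.87, against -0.74, and Dnajc4 with Dnajc10 -0.8, against -0.88. Within single tissues the share of member pairs was 12.2% in the hippocampus (all gene pairs 10.6%) and 21.2% in the cortex (12.3%), and with the GC trend removed 5.64% (8.29%) and 7.44% (7.28%).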

How the data were processed

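The authors deposited 1 table of whole-number counts of reads for each library, with a row per Ensembl gene, from single-end reads of polyadenylated RNA. Per the labels' protocols the kit was directional and RNA had an integrity number of 8 or more. Trimmomatic, STAR and featureCounts were used with GRCm39, per the submitters' processing notes; their versions, the annotation and the strand setting are not stated. Library sizes and tests exclude the 12 entries that name no gene (no feature 2.46% to 4.59%, ambiguous 4.12% to 4.58% of a library). Symbols were matched by identifier to GENCODE M21 (GRCm38), for 99.4% of identifiers and 99.98% of reads. GENCODE M21 also gave exon lengths, GC content and coding sequences. Exon length is that of all annotated exons of a gene merged, and exon GC content is that of its longest transcript. Coordinates printed are of GRCm38 and were not used on the counts.

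Tests used edgeR 4.0.16 (R 4.3.3; TMM scaling, filterByExpr, robust quasi-likelihood fit, two-sided F-tests, Benjamini-Hochberg over all genes tested, threshold 0.05). Treatments were compared within each tissue, tissues and interaction in a model of all 4 groups, each without a replicate block. The SE is the log2 fold change divided by the square root of F, and 95% intervals use the t distribution with the fit's degrees of freedom. Log2 CPM use a prior count of 2. Correlations were tested with 100000 resamples in scipy 1.17.1. The tests were also run on simulated data. Intervals cover the spread between these libraries. Alternatives were DESeq2 1.42.0, other scaling, no filter, thinning, a prior count of 0.5, leaving out each library and a replicate block; removal of each library's GC trend (lowess, span 0.3) was chosen after seeing the data.

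Over 14616 genes, deviations from group means correlated above 0.1 in 10 of 10 same-numbered pairs of hippocampus and cortex (YB-1 0.207 to 0.394, HSP70 0.198 to 0.624). The own number gave the highest correlation for 4 of 5 hippocampal libraries with YB-1 and 5 of 5 with HSP70. The numbers were therefore read as pairing the tissues, which the labels do not state. Between treatments 1 of 5 hippocampal and 3 of 5 cortical pairs lay above 0.1 (-0.283 to 0.496 in hippocampus, -0.135 to 0.167 in cortex). There the numbers were not read as pairs. The main tissue tests treat paired libraries as separate, and only the replicate block uses the pairs. No 2 libraries of a group were duplicates (chi-square per degree of freedom at least 10.1).

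The members and gene lists were chosen with earlier results of these data known. The genes named are members fixed by role, in each comparison the 3 members of smallest p on either side and the 3 partner genes with the smallest p, and the 5 members of the highest level per length; some genes the rule takes are given by counts or ranges only.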

Additional observations from a re-analysis of the deposited data

Results flagged for a closer look

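In 80 groups of 5 libraries, from 20 DNAJ genes in 4 groups, 5 held a library whose gap to its nearest neighbour was unusually large for the group's range. Chance alone flags about 1 in 20 groups. Dnaja1 was at 76.9 CPM in Cortex HSP70 replicate 1, above the other 4. Dnajb11 was at 45.4 CPM in Hippocampus YB-1 replicate 5, high within a narrow group. Dnajc10 was at 15.6 CPM in Hippocampus HSP70 replicate 5, far below the other 4. Dnajc12 was at 6.09 CPM in Cortex YB-1 replicate 2, also low. Dnajc15 was at 53.4 CPM in Hippocampus YB-1 replicate 4, above the other 4. The libraries with the Dnaja1 and Dnajc10 values are those with the highest and the lowest score on the leading axis of the family, 0.41 and -0.44. The causes were not tested.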

How the results depend on the processing

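Of 61 named values under 1217 alternatives, 1142 kept direction and side of the threshold, 36 lost and 7 gained a call and 32 changed sign, while 54 values never changed sign. An alternative without an adjusted p counted as kept if its sign held. Most named values had no call to lose, so the tally says little about the calls. The losses fell on tissue differences of Dnajb1 (12 of 20 single-library leave-outs over both treatments), Hspa2 (11 of 20), Hsp90aa1 and Bag3. All 0 counts of members between treatments stayed at 0. In the cortex the 0 genes called became 9 without the low-count filter, 4 with DESeq2 and 1 with thinned libraries, and 0 to 1 without single libraries. Between tissues over both treatments, the 2 members called became 1 without the filter and ranged from 1 to 2 without single libraries, and the 3 partner genes ranged from 1 to 4. With YB-1, the 0 members became 1 with the replicate block and 1 with block and GC trend removed, the 0 partner genes 1 with the GC trend removed and 0 to 1 without single libraries, and the 952 genes 1482 with block and GC trend removed. With HSP70, the 1 member became 2 with the GC trend removed and 2 with the block added, the 1 partner gene 0 with thinned libraries, 0 with the GC trend removed and 0 to 1 without single libraries, and the 1259 genes 1941 with block and GC trend removed. The block between tissues changed no other member call. Between treatments, where the numbers were not read as pairing libraries, the block left 0 members called.

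Signs changed for differences near 0 (log2, YB-1 over HSP70). In the hippocampus Dnaja4 (-0.003) was 0.039 in thinned libraries; without single libraries it ranged from -0.075 to 0.078, Dnaja1 from -0.196 to 0.02, Dnajb1 from -0.017 to 0.133 and Dnajb4 from -0.191 to 0.118. In the cortex Dnajb4 (-0.19) was 0.01 with the GC trend removed and 0.008 with the block added, and -0.322 to 0.054 without single libraries. Dnajb1 (0.006) was -0.023 without the filter, -0.05 with the GC trend removed and -0.053 with the block added, and -0.048 to 0.048 without single libraries. Dnaja4 (0.001) was -0.026 without the filter, -0.042 in thinned libraries, -0.004 with the replicate block and -0.001 with block and GC trend removed, and -0.053 to 0.09 without single libraries. The hippocampal correlation of Dnaja1 and Hsp90aa1 (0.223) was -0.429 with the GC trend removed and -0.054 to 0.531 without single libraries, and the cortical one of Dnajb1 and Hsph1 ranged from -0.827 to -0.595, passing without either of 2 libraries. The causes were not tested. Members with few reads, such as Dnajb13 and Dnajc21, have intervals wider than 2-fold.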
